A study of Mus musculus with 2 samples.

Results

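Pou5f1, Sox2 and Nanog, the transcription factor genes at the centre of the pluripotency network, were described in single mouse embryonic stem cells (mESC). They were found by their symbols in the gene table, where each symbol occurred once, so they are 3 of 55415 features. The cells are mESC, which self-renew in culture and can form the lineages of the embryo. The cell line carries GFP driven by the promoter of MERVL, an endogenous retrovirus that is active in cells resembling the 2-cell embryo (2C-like cells), and a histone H2B fused to the far-red protein mIFP for tracking. There were 2 libraries, labelled MERVL-GFP positive and MERVL-GFP negative, with no treatment, time point or genotype given beyond the reporter. Each group had 1 library and the batch label repeats the group, so a batch cannot be told apart from the reporter status, no test was possible, and every difference below describes these libraries. Intervals are 95% and cover counting error only.

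Pou5f1 encodes OCT4, a POU-domain factor that binds DNA together with SOX2, an HMG-box factor, at neighbouring octamer and SOX letters. The pair maintains its own genes and that of NANOG, a homeodomain factor whose level varies between mESC and which opposes the primitive endoderm fate driven by GATA6. Zscan4 genes mark the 2C-like state, and Gata6 and Dab2 mark primitive endoderm, the extra-embryonic layer that lies beside the epiblast in the blastocyst.

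The positive library kept 4596 of 4603 cells with a median of 29554 UMIs (molecule counts), and the negative library kept all 3832 with a median of 39100. The median mitochondrial share was 2.56% and 1.60%, and the libraries shared 3 cell barcodes. The 6 other mESC markers (Zfp42, Esrrb, Tdgf1, Dppa5a, Klf2, Tfcp2l1) were each at 10 CPM (counts scaled to the UMI total) or more in both libraries. The same held in the cells with 0 and with 5 or more UMIs of Zscan4, of GFP and of Gata6 and Dab2. Their levels still differed. In positive-library cells with 5 or more Gata6 and Dab2 UMIs against 0, Zfp42 was at 189 against 1042 CPM and Klf2 at 67.1 against 516. Tdgf1 was at 113 against 921 CPM, Tfcp2l1 at 38.7 against 101, Dppa5a at 9907 against 11876, and Esrrb, the lowest, at 11.9 against 47.2. The 6 feeder fibroblast markers summed to 12.8 and 3.13 CPM, mostly Thy1, and the 6 trophoblast markers to 44.6 and 10.7 CPM, mostly Krt18. GFP was at 205 CPM in the positive and 0.454 CPM in the negative library.

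In the GENCODE M21 annotation of GRCm38 (mm10), all 3 genes are protein coding and lie on the plus strand. Pou5f1 (ENSMUSG00000024406) is at chr17:35506018-35510772 with 6 transcripts. Sox2 (ENSMUSG00000074637) is at chr3:34650405-34652461 with 1 exon, inside the long noncoding gene Sox2ot, whose exons do not overlap it. Nanog (ENSMUSG00000012396) is at chr6:122707489-122714633 with 3 transcripts. Sox2ot was at 5.13 and 4.25 CPM in the positive and negative library, and no annotated Pou5f1 or Nanog pseudogene had more than 6 UMIs in a library, so reads assigned to these copies were few.

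The 250 bases before the first start of each gene in RefSeq (GRCm38.p6) are shown because the proteins of these genes bind octamer and SOX letters. Capitals mark TTTGCAT (an octamer part) and ACAATG (a SOX part), searched on both strands. Pou5f1 is read from chr17:35505782-35506031, Sox2 from chr3:34649745-34649994 and Nanog from chr6:122707239-122707488, each on the plus strand and 5′ to 3′. RefSeq's Sox2 start lies upstream of the GENCODE start given above.
Pou5f1: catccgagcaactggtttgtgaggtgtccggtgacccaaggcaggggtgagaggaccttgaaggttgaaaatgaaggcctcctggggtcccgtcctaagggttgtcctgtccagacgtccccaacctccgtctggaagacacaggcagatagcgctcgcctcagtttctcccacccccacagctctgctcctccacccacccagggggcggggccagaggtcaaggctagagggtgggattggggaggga
Sox2: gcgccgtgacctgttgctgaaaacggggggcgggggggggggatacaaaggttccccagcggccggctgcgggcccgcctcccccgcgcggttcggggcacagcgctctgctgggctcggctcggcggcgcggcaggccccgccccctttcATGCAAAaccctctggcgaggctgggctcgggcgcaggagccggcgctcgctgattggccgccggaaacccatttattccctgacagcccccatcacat
Nanog: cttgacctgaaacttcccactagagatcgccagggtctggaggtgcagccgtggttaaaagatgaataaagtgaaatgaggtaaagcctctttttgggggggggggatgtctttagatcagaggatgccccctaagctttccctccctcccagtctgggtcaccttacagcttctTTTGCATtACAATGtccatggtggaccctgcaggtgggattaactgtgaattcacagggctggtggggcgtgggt
The Nanog stretch holds TTTGCAT followed after 1 base by ACAATG, at bases -75 to -62 before the start. Of 32851 windows that RefSeq gives around gene starts (250 bases before to 50 after), 2 hold this arrangement (0.00609%), and both are overlapping windows of Nanog. The Sox2 stretch holds TTTGCAT on the minus strand, read as ATGCAAA, at bases -99 to -93. TTTGCAT alone occurs in 4.63% of the windows and ACAATG alone in 12.6%. No match to either was found in the first Pou5f1 window, and its second window holds ACAATG at bases -158 to -153. A match describes letters in these windows and is not a measured binding site. Only these exact letters and this spacing were searched, so other forms of the arrangement, and sites outside the windows, are not covered for any of the genes.

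Between the libraries the members went different ways: Nanog was higher in the positive library, and Pou5f1 and Sox2 were lower. Pou5f1 was at 278 CPM (275 to 281) in positive-library cells and 389 CPM (386 to 392) in those of the negative library. Its log2 ratio was -0.48 (-0.50 to -0.47). Sox2 was at 454 CPM (451 to 458) and 529 CPM (526 to 533), a log2 ratio of -0.22 (-0.24 to -0.21). Nanog was at 409.7 CPM (406 to 413) and 192 CPM (190.0 to 194), a ratio of 2.13 (2.10 to 2.16) or 1.09 on the log2 scale. The intervals of the libraries do not overlap for any member. Of 8042 genes with at least 10 CPM in a library and 50 UMIs in all, 7.01% were at least 2-fold higher in the positive library and 0.995% at least 2-fold lower, and the median gene had a log2 ratio of 0.14. By that size rule 1 of the 3 members, Nanog, was higher and 0 were lower. The rule turns on the scaling for Nanog: its log2 ratio was 0.79 under TMM factors and 0.99 under median-of-ratios factors, both short of 2-fold. TMM also moved the split over all genes from 564 higher and 80 lower to 353 higher and 247 lower. UMI levels are compared for the same gene only, since levels were not scaled to transcript length.

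Per cell, Sox2 and Nanog were broader than Pou5f1 in the positive library, with many cells at 0 beside cells with 10 or more UMIs. In the negative library 4.73% of cells were without Sox2 and few had that much Nanog. For this description each cell was randomly thinned to 10000 UMIs, which 4402 positive-library and 3824 negative-library cells reach. Pou5f1 had a median of 2 UMIs in the positive library (5th to 95th percentile 0 to 6) and 4 in the negative (1 to 8). Sox2 had a median of 3 (0 to 13) and 5 (1 to 11). Nanog had a median of 3 (0 to 13) and 1 (0 to 6). Medians thus ordered the libraries as the summed levels did, and the upper end of Sox2 reached further in the positive library although its median was lower there. Cells with 10 or more Nanog UMIs were 11.1% of the positive and 0.785% of the negative library. The same cells for Sox2 were 12.8% and 10.4%.

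**Figure D1:**
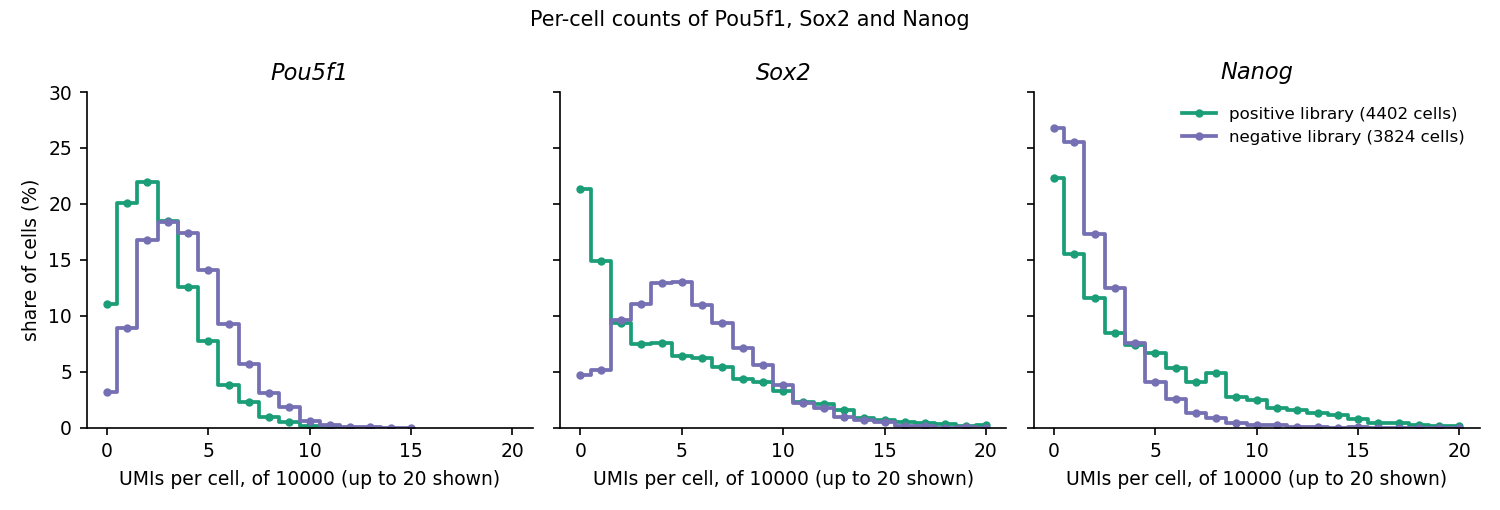
Share of cells (%) by the number of Pou5f1, Sox2 or Nanog UMIs per cell after thinning to 10000 UMIs, for the 4402 positive-library and 3824 negative-library cells. Sox2 peaks at 0 UMIs in the positive library (21.3% of cells) and at 5 UMIs in the negative library, while Nanog is highest at 0 in both (22.3% and 26.8%) with a longer upper end in the positive library.

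The share of cells without a UMI was set beside the share that Poisson sampling gives at the same mean. Pou5f1 had 11.1% of positive-library cells at 0 (Poisson 7.13%), while the negative library had 3.24% (Poisson 2.07%). Sox2 had 21.3% at 0 (Poisson 1.39%) and 4.73% (Poisson 0.478%). Nanog had 22.3% at 0 (Poisson 1.89%) and 26.8% (Poisson 14.3%). In every case more cells were empty than sampling alone gives, by the widest margin for Sox2 and Nanog in the positive library. Without thinning, Pou5f1, Sox2 and Nanog were detected in 96.9%, 89.3% and 87.8% of cells in the positive library, and the negative library had 99.9%, 98.7% and 92.1%. The order of the libraries for Nanog therefore turned: 77.7% (positive) and 73.2% (negative) of cells held a UMI at equal depth, but 87.8% and 92.1% at the full and unequal depths.

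The Fano factor (variance over mean, 1 for Poisson sampling) separated the members in the same way. It was 1.38 for Pou5f1, 4.27 for Sox2 and 4.59 for Nanog in the positive library, where the median gene with at least 0.5 thinned UMIs per cell had 1.20. In the negative library it was 1.21, 1.93 and 2.22, with a median gene at 1.12. Ranked by variance beyond Poisson relative to the squared mean, Nanog was 273 and Sox2 308 of 3024 genes in the positive library, and Pou5f1 1626. Nanog was 82, Sox2 565 and Pou5f1 1998 of 2750 genes in the negative library. By the Fano factor Pou5f1 lay above most genes, at percentile 69.9 in the positive and 70.8 in the negative library, and by the measure relative to the mean it lay in the middle or lower ranks. Nanog ranked above Sox2 by either measure in both libraries.

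Most cells held all 3 transcripts at equal depth, with 60.5% (59.1 to 62.0) in the positive and 69.4% (67.9 to 70.8) in the negative library. The next groups differed. Cells with Pou5f1 and Sox2 but no Nanog made up 10.6% of the positive and 22.9% of the negative library. Cells with Pou5f1 and Nanog but no Sox2 made up 9.06% and 1.54%. None of the 3 was seen in 62 positive-library cells (1.41%) and 7 negative-library cells (0.183%).

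Cells at 0 for both Sox2 and Nanog still held Pou5f1 and were rich in endoderm transcripts. Such cells numbered 447 in the positive (10.2%) and 121 in the negative library (3.16%). Pou5f1 was detected in 86.1% and 94.2% of them, against 88.9% and 96.8% of all cells. Among them, 41.8% (37.2 to 46.6) in the positive and 74.4% (65.6 to 81.9) in the negative library had 5 or more summed Gata6 and Dab2 UMIs, against 8.77% and 4.99% of all cells. In the positive library 30.6% (26.4 to 35.2) had 5 or more summed Zscan4 UMIs, against 19.7% of all its cells. Their median depth was 26503 UMIs against 30176 in the positive library and 38399 against 39129 in the negative. The part of depth in this share was not tested.

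Over cells at equal depth, Sox2 and Nanog varied together, and the counts of Pou5f1 were weakly tied to either. Spearman's rho between Sox2 and Nanog was 0.41 over 4402 positive-library cells, where Sox2 ranked 6 among the 3023 genes compared with Nanog and Nanog ranked 6 among those compared with Sox2. It was 0.19 over 3824 negative-library cells, where Nanog ranked 9 for Sox2 and Sox2 ranked 7 for Nanog among 2749 genes. Pou5f1 with Sox2 gave 0.19 in the positive library, where Sox2 ranked 25 for Pou5f1 but Pou5f1 ranked 190 for Sox2, and -0.026 in the negative, with ranks of 2443 and 2049. Pou5f1 with Nanog gave 0.067 and 0.012. For comparison, the 5th and 95th percentiles of rho with Pou5f1 over all genes ranked were -0.11 and 0.13 in the positive and -0.037 and 0.044 in the negative library. With Sox2 they were -0.17 and 0.20, a range that holds the 0.19, and -0.068 and 0.074. All of these are descriptions over cells that share a library and its range of depth. The values depend on depth: without thinning Pou5f1 with Sox2 was 0.29 in the positive and -0.052 in the negative library. Sox2 with Nanog was then 0.49 and 0.31. Thinned Nanog counts had a mean of 3.97 in the positive and 1.95 in the negative library, so its rho was not taken at like counts. The part of counting error in these values was not tested. Thinned counts of the members still followed each cell's full UMI number in the positive library, with a rho of 0.21 for Pou5f1, 0.25 for Sox2 and 0.14 for Nanog. In the negative library those values were 0.016, -0.014 and 0.020.

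**Figure D2:**
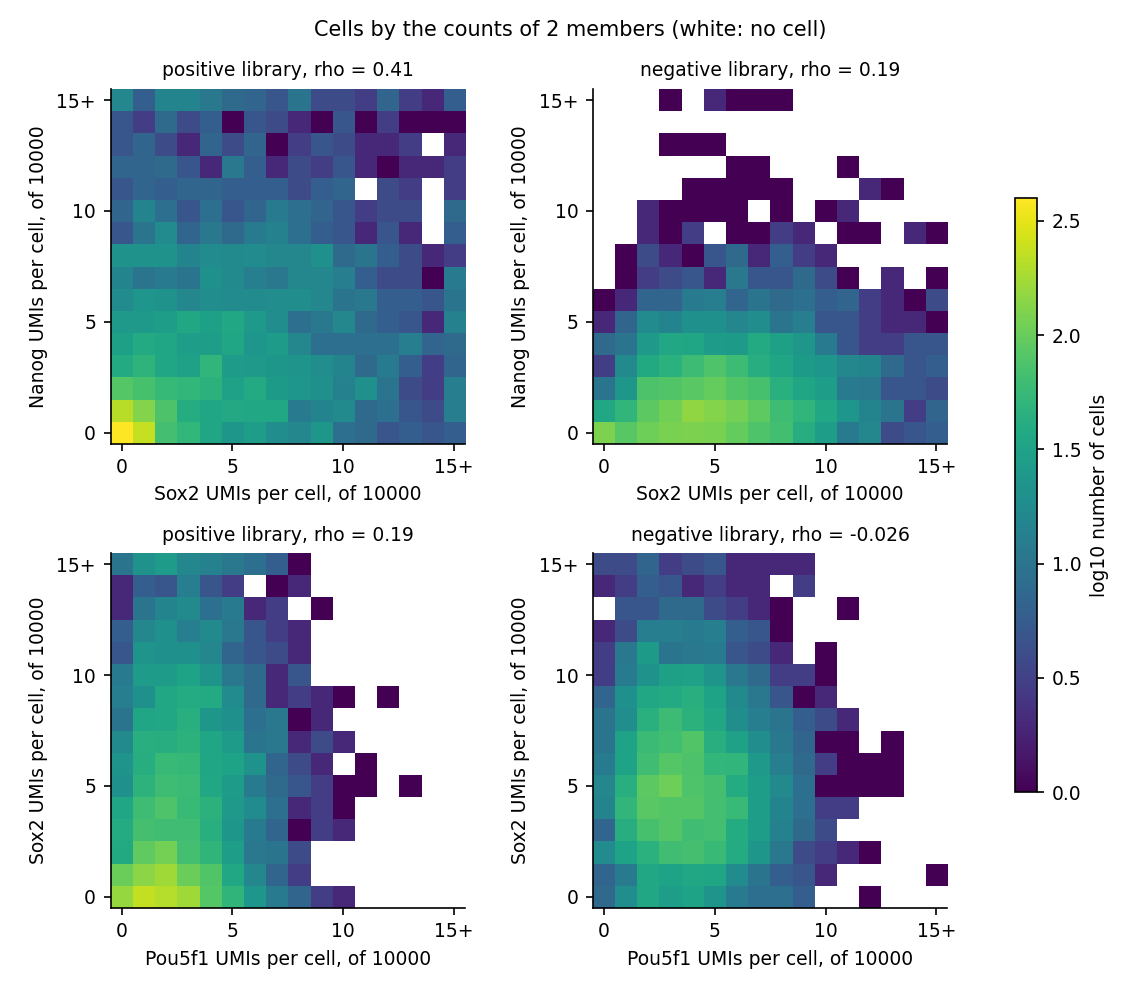
Number of cells (log10 colour scale, white for no cell) by thinned UMIs per cell of Sox2 and Nanog (top) and of Pou5f1 and Sox2 (bottom), with counts of 15 or more in the last row or column. Positive-library cells gather at 0 for both Sox2 and Nanog and spread along a rising band (rho 0.41), while Pou5f1 and Sox2 show no such band in the negative library (rho -0.026).

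The tie between Sox2 and Nanog was weaker within classes of cells than over all cells of a library. Among cells with 0 thinned UMIs of Zscan4, Gata6 and Dab2 its rho was 0.16 in the positive library (1488 cells) and 0.11 in the negative (3363 cells). Among cells with 5 or more Zscan4 UMIs it was 0.32 (868 cells). Among cells with 5 or more Gata6 and Dab2 UMIs, where both genes were near their lowest levels, it was 0.12 (386 cells) and 0.16 (191 cells). The rho stayed above 0 in each of these 5 classes of cells. Pou5f1 with Sox2 was 0.12 in the positive and -0.033 in the negative library among the cells with 0 thinned UMIs of Zscan4, Gata6 and Dab2.

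Zfp42 (Rex1, a zinc finger marker of naive mESC) was among the genes most like Sox2 and Nanog in both libraries. In the positive library the genes with the highest rho to Sox2 were Zfp42 at 0.64, Tdgf1, a Nodal co-receptor, at 0.51 and Klf4, a Krüppel-like pluripotency factor, at 0.46. For Nanog they were Jam2, a junctional adhesion molecule, at 0.48, Zfp42 at 0.48 and Klf2, a further Krüppel-like factor, at 0.44. Pou5f1 reached 0.24 with Dpy30, Set and Zfp42. The lowest values for Sox2 were with Lgals4 at -0.47, Gm20767 at -0.45 and Eif1ad8 at -0.44, and for Pou5f1 with Eif1ad8, Eif1ad3 and Eif1ad7 at -0.23 to -0.21. For Nanog the lowest were P4ha2 and Serpinh1, which act in collagen maturation, at -0.35 and Dab2 at -0.32. Dab2 had the same rho of -0.32 with Sox2, and the summed Gata6 and Dab2 UMIs had -0.36 with Nanog, -0.35 with Sox2 and -0.014 with Pou5f1.

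In the negative library the ties were weaker. Sox2 was most like Zfp42 at 0.28, followed by Kdm5b, a histone demethylase, and Ldhb, both at 0.24. Nanog was most like Zfp42 at 0.32, Jam2 at 0.27 and Fgf4, a growth factor gene controlled by OCT4 and SOX2, at 0.23. Pou5f1 was most like Utf1, a chromatin factor of pluripotent cells, at 0.12, with Akr1b3 and Zfp57 at 0.11. Among the lowest were Pfn1 at -0.22 and Lrpap1 at -0.18 for Sox2, Sdc4, Dnmt3l and Bst2 for Nanog (-0.18 to -0.12), and the ribosomal protein genes Rpl12, Rps12 and Rpl23a for Pou5f1 (-0.087 to -0.073).

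With more Zscan4 per cell, all 3 members were lower, Sox2 by far the most. Positive-library cells were put in classes by the summed thinned UMIs of the 6 genes Zscan4a to Zscan4f, which are near-identical copies whose reads may be exchanged between them. Sox2 was at 547 CPM (541 to 552) in the 1970 cells with 0, 444 CPM (438 to 449.9) in the 1564 cells with 1 to 4, 227 CPM (219 to 234) in the 630 cells with 5 to 19 and 133 CPM (123 to 144) in the 238 cells with 20 or more. Each step was lower than the one before, with no overlap of intervals. Pou5f1 was at 311 CPM (306 to 315), 272 (267 to 277), 207 (199.8 to 214) and 161 (149 to 172) in the same order, again lower at each step. Nanog was at 422 CPM (417 to 427), 436 (429.9 to 442), 337 (328 to 346) and 280.0 (265 to 296). Its summed level was thus slightly higher with 1 to 4 Zscan4 UMIs than with 0, and lower only above that. At equal depth no such rise was seen: the mean Nanog count per cell was almost the same in these classes and the median was equal. The share of cells with a Nanog UMI was already lower with 1 to 4 Zscan4 UMIs than with 0.

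Comparing the 868 cells with 5 or more Zscan4 UMIs with those at 0, Sox2 was 2.66-fold lower (2.57 to 2.74), that is -1.41 as a log2 ratio. Pou5f1 had a log2 ratio of -0.66 (-0.71 to -0.61) and Nanog of -0.38 (-0.42 to -0.34). Of 8318 genes, 2.49% were at least 2-fold lower and 7.62% at least 2-fold higher in this comparison. Of the members, Sox2 was past 2-fold, and only 0.601% of genes had a lower ratio than it. The Zscan4-high cells were shallower, with a median of 22234 UMIs against 33015, and had 3.01% against 2.35% mitochondrial UMIs. Among cells of 20000 to 40000 UMIs the log2 ratios were -1.41 for Sox2, -0.65 for Pou5f1 and -0.33 for Nanog. With any Zscan4 UMI against 0, the ratio of Sox2 was -0.55, short of 2-fold, and those of Pou5f1 and Nanog were -0.32 and -0.068.

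At equal depth Sox2 was detected in 85.9% of cells at 0 Zscan4 UMIs and in 61.1% of those with 5 or more. Cells with at least 5 Sox2 UMIs were 52.7% and 10.7%. Nanog was detected in 80.8% and 71.8%, and Pou5f1 in 91.8% and 81.9%. High Sox2 was more frequent nearer the limit of the class, where 13.2% of cells with 5 to 19 Zscan4 UMIs had at least 5 Sox2 UMIs, than in cells with 20 or more, where 4.20% did. The Fano factor of Sox2 was 3.49 at 0, 5.13 at 5 to 19 and 2.80 at 20 or more. Over the 4402 cells, rho with summed Zscan4 was -0.35 for Sox2, -0.20 for Pou5f1 and -0.12 for Nanog. The negative library had 10 cells with a Zscan4 UMI, 2 of them with 5 or more, so no comparison was made there.

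**Figure D3:**
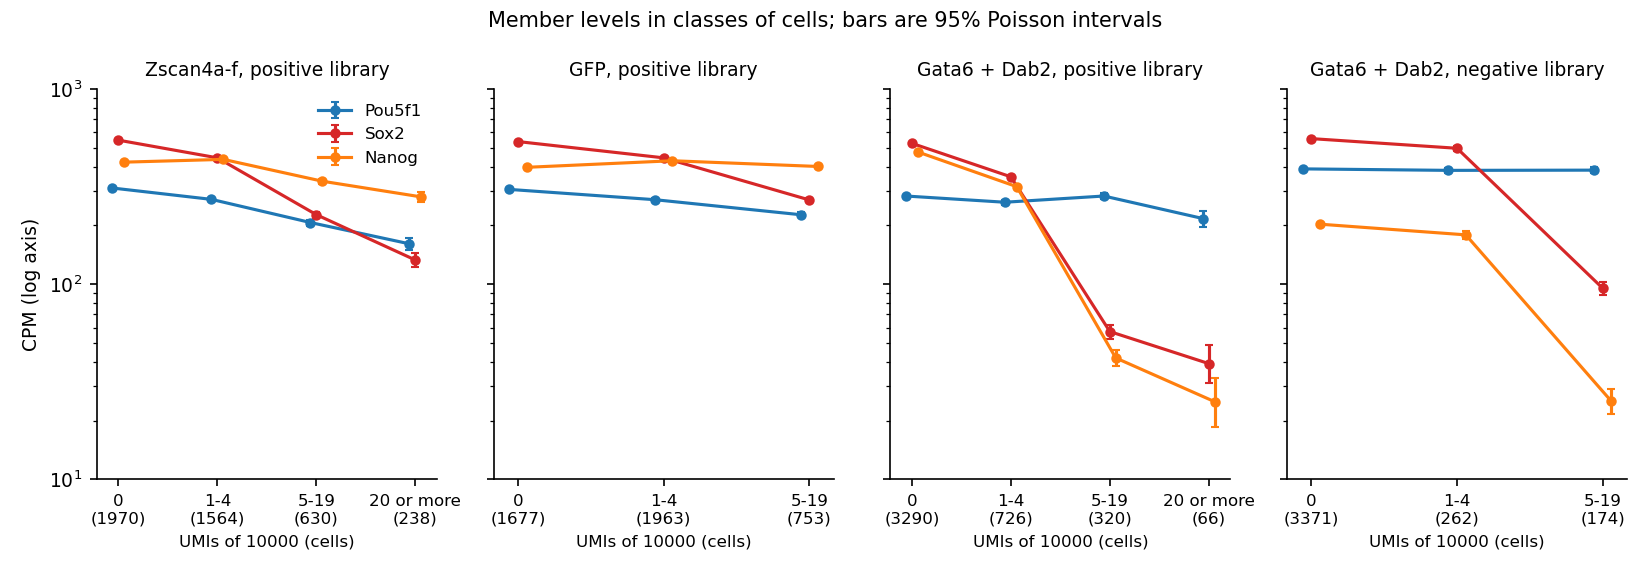
Levels of the members in CPM (log axis, bars are 95% Poisson intervals) in classes of cells by the thinned UMIs of the 6 Zscan4 genes, of GFP or of Gata6 and Dab2, with the number of cells in each class in brackets and classes under 50 cells left out. Sox2 is lower from left to right in every panel, Nanog is lower mainly with the endoderm genes, and Pou5f1 lies between 217 and 283 CPM over the endoderm classes of the positive library and between 383 and 389.8 CPM in the negative.

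GFP, the readout of the MERVL promoter, went with lower Sox2 and Pou5f1 by less than Zscan4 did, and with almost the same summed Nanog, although fewer cells held a Nanog UMI. Sox2 was at 538 CPM (532 to 544) in the 1677 positive-library cells with 0 GFP UMIs, 444 CPM (439 to 449) in the 1963 with 1 to 4 and 270.2 CPM (263 to 278) in the 753 with 5 to 19. Pou5f1 was at 306 (302 to 311), 271 (267 to 275) and 227 CPM (220.2 to 234). Nanog was at 397 (392 to 403), 429 (424 to 435) and 401 CPM (392 to 409.8), where the lowest and highest of these GFP classes overlap. At equal depth Nanog was detected in 79.9% of cells at 0 GFP UMIs (77.9 to 81.8) and in 71.4% of those with 5 or more (68.0 to 74.6), with Fano factors of 4.21 and 5.65. Only 9 cells had 20 or more. With 5 or more UMIs (762 cells) against 0, the log2 ratio was -1.0 for Sox2 (-1.04 to -0.96), -0.43 for Pou5f1 (-0.48 to -0.38) and 0.0067 for Nanog (-0.031 to 0.044).

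Sox2, at a ratio of 0.501, was just short of the 2-fold rule, so 0 of 3 members passed it, with 1.75% of 8191 genes at least 2-fold lower and 4.71% higher. It passed the rule when the mean of each cell's CPM was used (-1.12), when cells were thinned to 5000 UMIs (-1.16) and with 10 or more GFP UMIs (-1.47). The sign for Nanog turned with the setting, from -0.15 to 0.10. GFP-high cells had a median of 24771 UMIs and GFP-zero cells 32428. Among cells of 20000 to 40000 UMIs the ratios were -0.94 for Sox2, -0.36 for Pou5f1 and 0.066 for Nanog.

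When Zscan4 and GFP were crossed, Sox2 was lower with either and lowest with both. It was at 580.4 CPM (572 to 588) in the 1043 cells with neither, 366 CPM (349 to 384) in the 160 cells with 5 or more GFP and 0 Zscan4 UMIs, 222 CPM (203 to 241) in the 89 cells with 5 or more Zscan4 and 0 GFP UMIs, and 175 CPM (165 to 184) in the 338 cells with 5 or more of both. Pou5f1 was at 323, 256, 178 and 201 CPM, so its lowest level was with Zscan4 alone, where the interval of 161 to 196 lay beside 191 to 211 with both. Nanog was at 399 CPM with neither and 399.5 with GFP alone, and at 328 and 333 CPM in the classes with Zscan4. The summed level was thus lower with Zscan4 and not with GFP. The share of cells with a Nanog UMI was 82.2% with neither, 73.1% with GFP alone, 73.0% with Zscan4 alone and 70.7% with both, so by that measure it was lower with either.

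Of the comparisons made here the endoderm genes gave the widest differences, and they set Pou5f1 apart from the other two. In the positive library Sox2 was at 527 CPM (522 to 531) in the 3290 cells with 0 Gata6 and Dab2 UMIs, 355 CPM (347 to 363) in the 726 with 1 to 4, 57.2 CPM (52.6 to 62.0) in the 320 with 5 to 19 and 39.2 CPM (31.1 to 48.8) in the 66 with 20 or more. Nanog was at 476 CPM (472 to 480.5), 316 (308 to 324), 41.9 (38.0 to 46.1) and 25.0 (18.6 to 32.9). Pou5f1 was at 283 CPM (280.1 to 287), 263 (256 to 269.6), 283 (273 to 294) and 217 (197 to 238). Sox2 and Nanog were lower at every step without overlap, whereas the intervals of Pou5f1 overlapped between 0 and 5 to 19 UMIs, with lower values at 1 to 4 and in the class of 66 cells.

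The negative library showed the same order from fewer cells. Sox2 was at 557 CPM (553 to 561) in the 3371 cells with 0, 497 CPM (483 to 509.9) in the 262 with 1 to 4 and 95.3 CPM (88.4 to 103) in the 174 with 5 to 19. Nanog was at 203 CPM (201 to 205), 179 (171 to 187) and 25.1 (21.6 to 28.9). Pou5f1 was at 389.8 CPM (386 to 393), 383 (371 to 395) and 384 (369.7 to 398), with overlapping intervals. Another 17 cells had 20 or more.

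With 5 or more against 0, Nanog was 12.2-fold lower (11.1 to 13.4) in the positive library and 8.48-fold lower (7.36 to 9.84) in the negative, and it had the second lowest ratio of all genes in each. Sox2 was 9.72-fold lower (9.0 to 10.5) and 5.99-fold lower (5.57 to 6.45), which placed it 4 of 8250 and 11 of 7648 from the lowest. Pou5f1 had log2 ratios of -0.058 (-0.11 to -0.0064) and -0.022 (-0.076 to 0.030), near the medians of all genes at -0.057 and 0.038. In the positive library 6.16% of genes were at least 2-fold lower and 6.05% higher, and in the negative 3.79% and 6.51%. By that rule 2 of 3 members were lower in each library. With any Gata6 or Dab2 UMI against 0, the log2 ratios of Sox2 and Nanog were -1.10 and -1.14 in the positive library and -0.76 and -0.82, short of 2-fold, in the negative.

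The endoderm classes were of like depth, with medians of 30610 against 30490 UMIs in the positive and 40225 against 39094 in the negative library. The 6 primitive endoderm markers summed to 1638 and 1450 CPM in the high classes and 20.5 and 7.11 CPM in the classes at 0, in part by the choice of cells, since Gata6 and Dab2 are among them. Gata4 and Sox17, endoderm factors that did not choose the cells, were at 42.3 and 131 CPM against 1.13 and 5.18 CPM in the positive library, and at 46.7 and 207 CPM against 0.604 and 0.801 CPM in the negative. Sox2 was still detected in 35.5% of the high cells of the positive and 44.0% of those of the negative library at equal depth, and Nanog in 27.7% and 19.4%. In the 66 positive-library cells with 20 or more endoderm UMIs, shares were 33.3% (22.2 to 46.0) for Sox2 and 25.8% (15.8 to 38.0) for Nanog. These intervals hold the shares of all high cells of that library. The part of free RNA in these shares was not tested. Pou5f1 was detected in 92.0% and 95.3%.

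Gata6 and Dab2 were also taken apart. In the positive library Sox2 was at 311 CPM in the 308 cells with Gata6 only, 347 CPM in the 439 with Dab2 only and 81.3 CPM in the 365 with both. Nanog was at 271, 314 and 62.2 CPM. In the negative library Sox2 was at 358 CPM in the 208 cells with Gata6 only, 517 CPM in the 112 with Dab2 only and 113 CPM in the 133 with both, and Nanog was at 111, 194 and 49.0 CPM. In that library cells with Dab2 alone were nearer than cells with Gata6 alone to cells with 0 of both (557 CPM of Sox2 and 203 CPM of Nanog). With Dab2 alone, the Sox2 interval of 497 to 538 still lay below 553 to 561 at 0. The Nanog interval of 182 to 207 overlapped 201 to 205. The number of Gata6 and Dab2 UMIs was not held equal between these classes, so a difference between the 2 genes was not tested. Pou5f1 lay between 255 and 277 CPM over these classes in the positive and between 372 and 392 CPM in the negative library.

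Crossing Zscan4 with the endoderm genes separated the low Sox2 of the 2 kinds of cells by the level of Nanog. In the positive library the 1488 cells with 0 of both had 623 CPM of Sox2 (616 to 630.1), 487 CPM of Nanog (481 to 493) and 318 CPM of Pou5f1 (313 to 323). The 636 cells with 5 or more Zscan4 and 0 endoderm UMIs had 234 CPM of Sox2 (226 to 241), 362 CPM of Nanog (352 to 371) and 195 CPM of Pou5f1 (189 to 203). The 202 cells with 5 or more endoderm and 0 Zscan4 UMIs had 55.6 CPM of Sox2 (50.1 to 61.5), 41.5 CPM of Nanog (36.8 to 46.7) and 281 CPM of Pou5f1 (268 to 293). Against the cells with 0 of both, Zscan4-high cells had log2 ratios of -1.41 for Sox2, -0.70 for Pou5f1 and -0.43 for Nanog. Endoderm-high cells had -3.46 for Sox2, -3.52 for Nanog and -0.18 for Pou5f1. The share of all genes past 2-fold was not counted for these crossed classes, so the size rule is not applied to them. The 43 cells high in both had 58.0 CPM of Sox2 (44.6 to 74.0), 28.1 CPM of Nanog (19.1 to 39.9) and 234 CPM of Pou5f1 (206 to 264), with intervals that overlap those of endoderm-high cells for Sox2 and Nanog. Their median depth was 22746 UMIs.

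**Figure D4:**
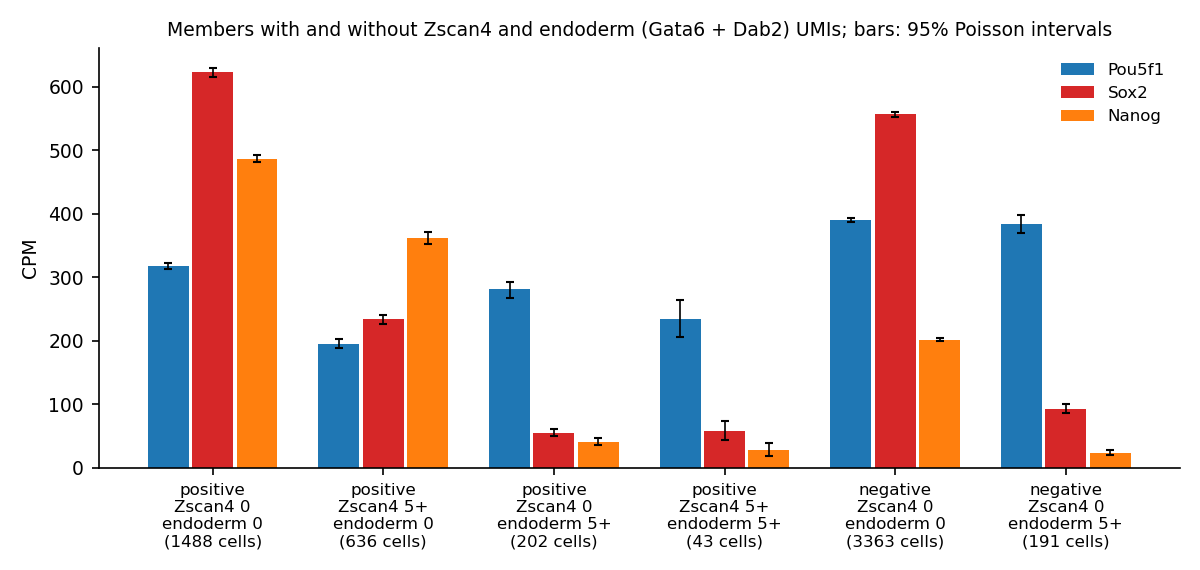
Levels of the members in CPM (bars with 95% Poisson intervals) in cells with 0 or with 5 or more thinned UMIs of Zscan4 and of Gata6 and Dab2, by library, with the number of cells. Sox2 and Nanog are near the bottom wherever the endoderm genes are high, and Pou5f1 is lowest where Zscan4 alone is high (195 CPM).

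The libraries were also compared over cells with 0 thinned UMIs of each of these transcripts, which can still hold some at full depth. Over all their UMIs, positive-library cells with 0 thinned Zscan4 UMIs had 60.6 CPM of 2C-like markers, Zscan4c and Zscan4d among them. In cells with 0 thinned Gata6 and Dab2 UMIs, Gata6 was at 4.22 CPM in the positive and 2.27 CPM in the negative library. There were 813 positive-library and 3349 negative-library cells with 0 thinned UMIs of Zscan4, GFP, Gata6 and Dab2. Sox2 was at 645 CPM (636 to 655) in the former and 557 CPM (553 to 561) in the latter, so its log2 ratio turned to 0.21 from -0.22 over all cells. The sign of this ratio depended on the scaling: it was 0.082 with median-of-ratios factors and -0.12 with TMM factors. Nanog was at 451 CPM (443 to 459) and 202 CPM (199 to 204), a log2 ratio of 1.15. Pou5f1 was at 327 CPM (321 to 334) and 389.9 CPM (387 to 393), a log2 ratio of -0.25. Nanog was higher (0.82 to 1.15) and Pou5f1 lower (-0.58 to -0.25) in the positive library under all 5 scalings tried on these cells, and no direction is given for Sox2. This choice of cells was made after the values were seen.

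The other genes of the network were counted by the same size rule. A gene enters a comparison at 10 CPM in either group, so the limit set the direction of one that is under it in the other group. Of all genes past 2-fold, 43.1% to 68.3% by comparison and direction were of this kind (46.2% and 68.3% between libraries). The counts below are therefore descriptions, and the members of this kind are named. Of 17 partner factors, 16 were tested between libraries and 0 passed 2-fold, beside 7.01% higher and 0.995% lower over all genes, shares at which few of 16 would pass. Their median log2 ratio was -0.020, beside 0.14 over all genes. With Zscan4, 3 of 17 were lower and 0 higher: Zfp42 at -1.43, Klf4 at -1.21 and Prdm14, a repressor of fibroblast growth factor signalling, at -1.02, which was at the limit only in the cells without Zscan4. Over all genes 2.49% were lower and 7.62% higher. The list's median was -0.68 beside -0.093 over all genes. With GFP, 0 of 17 passed, beside 4.71% higher and 1.75% lower over all genes. With the endoderm genes, 10 of 17 were lower and 2 higher in the positive library (median -1.52), and 7 of 16 lower and 2 higher in the negative (median -0.87). Over all genes 6.16% were lower and 6.05% higher in the positive library (median -0.057), and 3.79% and 6.51% in the negative (median 0.038). Klf2 was at -2.93 and -2.47, Zfp42 at -2.46 and -2.35, and Nr5a2, a nuclear receptor that can activate Pou5f1, at -2.37 and -1.78. Prdm14 was at -2.63 in the positive library, where it and Nr5a2 were at the limit only in the cells without endoderm UMIs, as was Nr5a2 in the negative. There Prdm14 was below the limit in both classes, and Tet1, a DNA demethylase, was at -1.34. Klf5, a Krüppel-like factor, was higher at 1.08 and 1.33. The ratios of Sox2 and Nanog were lower than those of every tested partner in both libraries.

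Of 15 genes known as targets of the factors, 3 of 14 tested passed between libraries, 2 higher and 1 lower, beside 7.01% and 0.995% of all genes. Fbxo15, an F-box gene, was higher at 2.69 on the log2 scale (809 against 124 CPM), and Dppa3 (Stella), a maternal factor, at 2.5 (51.3 against 8.23 CPM), at the limit in the positive library only. Utf1 was lower at -1.46 (162 against 448 CPM). With Zscan4, Dppa3 at 1.31 and Fbxo15 at 1.27 were again higher, and Gdf3, a TGF-beta family ligand, at -1.48, Utf1 at -1.42 and Lefty1, a Nodal inhibitor, at -1.10 were lower, which makes 2 higher and 3 lower of 14, beside 7.62% and 2.49% of all genes. Lefty1 was at the limit only in the cells without Zscan4. With GFP, 1 was higher (Fbxo15 at 1.51) and 2 lower (Gdf3 at -1.29, Lefty1 at -1.0) of 15, beside 4.71% and 1.75%. With the endoderm genes, 4 were lower and 3 higher of 15 in the positive library and 3 lower and 2 higher of 14 in the negative, beside 6.16% and 6.05%, and 3.79% and 6.51%, of all genes. Fgf4 was at -3.43 and -3.52, Tdgf1 at -3.02 and -2.16, and Phc1, a Polycomb gene, at -2.63 and -2.24. Lefty2, another Nodal inhibitor, was at 2.04 and 2.12, but at the limit only in the endoderm-high cells of either library, as Fgf4 in the negative library was only in the cells at 0. The list's median log2 ratio was -0.047 between libraries, -0.89 with Zscan4, -0.51 with GFP, and -0.50 and -0.26 with the endoderm genes, beside 0.14, -0.093, -0.12, -0.057 and 0.038 over all genes. Targets past 2-fold thus lay on both sides, while the middle of the list was lower than that of all genes in each comparison.

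Among 10 family relatives, Sox3, which shares the SOXB1 group with Sox2, and Sox11 were higher where Sox2 was lower with Zscan4: 34.6 against 11.2 CPM for Sox3 (1.55) and a log2 ratio of 1.26 for Sox11, which were 2 of 5 tested beside 7.62% of all genes. Between libraries Sox3 was at 18.0 and 1.11 CPM and Sox11 at 27.4 and 12.5 CPM, where Sox3 was at the limit in the positive library only and no count is given. With GFP, Sox3 was at 34.2 against 9.80 CPM (1.70), at the limit only in the GFP-high cells. Of the other 4 tested 0 passed, beside 4.71% higher and 1.75% lower over all genes, shares at which few of 4 would pass. With the endoderm genes in the positive library Sox11 was at -1.20 and Sox4 at -1.36. Sox3 at -2.0 and Pou3f1 at -1.39 were at the limit only in the cells at 0, so no count is given. These 2 were not tested in the negative library, where Sox11 was at -0.12 and Sox4 at -0.85. Of 9 factors of opposing fates, 2 were tested with Zscan4, and Gata6 was at -1.51 (24.4 against 71.4 CPM), beside 2.49% of all genes lower. With the endoderm genes Gata4, Sox7 and Sox17 entered the comparison only through the high cells, so no count is given for them.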

How the data were processed

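The authors deposited integer counts for each gene in each cell barcode, which are read here as UMIs because each count belongs to a cell barcode; molecule counting is not stated. Per the submitters' processing notes, FastQC 0.11.2, Trim Galore 0.6.4 and STAR 2.7.6a and the build mm10 were named, with no role or order. Annotation and cell calling are not given in the sources used here, and the labels' extraction text names kits for total RNA and for bulk libraries, so cell capture is not described. GENCODE M21 held 52081 of the 55415 feature IDs.

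Cells with at least 1000 UMIs, 500 genes and at most 20% mitochondrial UMIs were kept, and no doublet caller was run. UMIs were summed over cells and scaled to CPM, and log2 ratios used CPM + 1. For per-cell values and classes 10000 UMIs were drawn from each cell without replacement, leaving out 194 shallower positive-library cells and 8 in the negative library. Intervals are exact Poisson for sums, exact conditional for ratios and exact binomial (Clopper-Pearson) for shares. The size rule asks for at least 10 CPM in 1 of the groups, 50 UMIs in total and a 2-fold ratio. It was tried on simulated data for the library comparison, where it recovered 200 of 200 changed genes among 55415 with 0 false calls. That simulation drew both libraries from the same profile with counting error only. It changed genes above the CPM limit by more than 2-fold. Variation between cells or libraries was not simulated, so the result covers the arithmetic of the rule and not its error in these data.

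Named genes are the members, the 3 genes with the highest and the 3 with the lowest Spearman rho to each member among genes with at least 0.5 thinned UMIs per cell, and list genes past 2-fold, up to 4 per list, chosen by the size of the ratio, and 1 gene that this rule names is not reported here. Klf5 and, with Zscan4, Lefty1 were named after their values were seen, and Gata4 and Sox17 as a check of the endoderm class. The members and lists were chosen with earlier results of these data known. Alternatives changed the cell filter, scaling, pseudocount, depth, thinning, class limits and the measure of correlation. Python 3.11.15 was used with pandas 2.3.3, scipy 1.17.1 and numpy 2.4.6, and R 4.3.3 with edgeR 4.0.16 for TMM factors only.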

Additional observations from a re-analysis of the deposited data

How the results depend on the processing

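No paired analysis was possible because the groups hold 1 library apiece. A change was counted where a value left its counting interval, or, for a number of genes, where it moved by over 1.5 times. Leaving out the cell filter, a stricter filter and a pseudocount of 0.1 moved none of the 15 log2 ratios. The log2 ratios between libraries of Pou5f1, Sox2 and Nanog were -0.78, -0.51 and 0.79 with TMM and -0.58, -0.32 and 0.99 with median-of-ratios scaling. They were -0.52, -0.26 and 1.05 without ribosomal protein and mitochondrial genes, and -0.56, -0.35 and 1.01 as means of cell CPM. They were -0.25, 0.21 and 1.15 in the cells with 0 thinned UMIs of Zscan4, GFP, Gata6 and Dab2. In those cells they were -0.58, -0.12 and 0.82 with TMM, -0.38, 0.082 and 1.02 with median-of-ratios scaling, -0.29, 0.17 and 1.11 without ribosomal protein and mitochondrial genes, and -0.28, 0.19 and 1.13 as means of cell CPM. These 5 settings were chosen after seeing the data. Sox2 was at -0.27 among cells of 20000 to 40000 UMIs. Genes at least 2-fold higher numbered 564, but 1243 at a limit of 1 CPM or with none and 353 with TMM, and those lower numbered 80, but 247 with TMM.

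For Zscan4 the ratios of Pou5f1, Sox2 and Nanog were -0.79, -1.66 and -0.53 with 10 or more UMIs, -0.32, -0.55 and -0.068 with any UMI, and -0.74, -1.59 and -0.52 after thinning to 5000 UMIs. Means of cell CPM gave -1.52 for Sox2 and -0.43 for Nanog, Nanog was at -0.33 at 20000 to 40000 UMIs and -0.43 without endoderm UMIs, and a second random draw, chosen after seeing the data, gave -0.60 for Pou5f1. For GFP the ratios were -0.66, -1.47 and -0.032 with 10 or more, -0.23, -0.42 and 0.087 with any UMI, and -0.36, -0.94 and 0.066 at 20000 to 40000 UMIs. Sox2 and Nanog were at -1.12 and -0.10 as means of cell CPM, -1.16 and -0.15 after thinning to 5000, and -0.94 and 0.060 without endoderm UMIs, and Nanog at 0.10 in the second draw.

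For the endoderm genes in the positive library, Sox2 and Nanog were at -3.72 and -3.86 with 10 or more, -1.10 and -1.14 with any UMI, -3.40 and -3.76 without cells above 2 times the median UMIs, and -3.63 and -4.05 at 20000 to 40000 UMIs. Sox2 was at -3.43 after thinning to 5000, -3.46 without Zscan4 UMIs and -3.41 in the second draw, and Pou5f1 at 0.013 as means of cell CPM, 0.0070 at 20000 to 40000 UMIs and -0.18 without Zscan4 UMIs. In the negative library Sox2 and Nanog were at -3.02 and -3.70 with 10 or more, -0.76 and -0.82 with any UMI, and -2.79 and -3.42 without high-UMI cells. There Sox2 was at -2.70 as means of cell CPM, and Nanog at -3.66 at 20000 to 40000 UMIs and -2.87 after thinning to 5000.

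Between Sox2 and Nanog the Pearson r was 0.22 in the negative library. Their Spearman correlation was 0.35 and 0.13 in the positive and negative library after thinning to 5000, and 0.49 and 0.31 without thinning. It was 0.16 and 0.11 in cells with 0 thinned UMIs of Zscan4, Gata6 and Dab2. Pou5f1 with Sox2 in the positive library was 0.15, 0.29 and 0.12 in the same order, and Pou5f1 with Nanog 0.12 without thinning and 0.0051 in those cells. At 5000 UMIs 64.8% to 69.1% of positive-library and 52.6% to 86.9% of negative-library cells held a UMI of a member, so these shares depend on depth and are not shares of expressing cells. Where no cause is shown by the setting itself, the cause was not tested.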

Other observations

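The few negative-library cells with reporter or Zscan4 transcripts were too few for a comparison. In the 18 cells with 1 to 4 thinned GFP UMIs, Pou5f1 was at 409 CPM (364 to 457), Sox2 at 601 CPM (547 to 659) and Nanog at 243 CPM (209 to 282), beside 389, 529 and 192 CPM in the 3806 cells without GFP. In the 17 negative-library cells with 20 or more Gata6 and Dab2 UMIs, Nanog had 5 UMIs in all, or 8.90 CPM (2.89 to 20.8), while Pou5f1 was at 384 CPM (335 to 439) and Sox2 at 62.3 CPM (43.4 to 86.6).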
